A study of Mus musculus with 4 samples.

Results

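The genes described here are 10 mouse genes of haem, iron and metal handling, chosen by name with earlier results of these data known. They were followed by cell class and day through 4 scRNA-seq libraries of the injured carotid artery. They are Hmox1 (ENSMUSG00000005413), Blvrb (ENSMUSG00000040466), Fth1 (ENSMUSG00000024661), Ftl1 (ENSMUSG00000050708), Slc40a1 (ENSMUSG00000025993), Tfrc (ENSMUSG00000022797), Slc11a1 (ENSMUSG00000026177), Slc39a14 (ENSMUSG00000022094), Mt1 (ENSMUSG00000031765) and Mt2 (ENSMUSG00000031762). All 10 were among the 31053 genes listed in the files, of which 20506 had at least 1 unique molecular identifier (UMI, a tag that marks 1 captured mRNA molecule). The carotid arteries came from C57BL/6 male mice, 11 weeks of age before injury. They were taken before injury (day 0) or 3, 7 and 14 days after wire injury of the vessel. Arteries were pooled at each time, vessels with a thrombus were left out, and each pool was digested with the same enzymes, depleted of dead cells and run as a single 10x Genomics 3′ library. There was thus 1 library per day and no replicate, so no test between days was possible, and every interval below is a 95% interval that covers counting error only.

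Haem released from red cells and dying cells is split by haem oxygenase into iron, carbon monoxide and biliverdin, and biliverdin reductases reduce the latter further. The freed iron is stored in ferritin, a shell of heavy and light chains, or leaves the cell through ferroportin, while transferrin-bound iron enters through the transferrin receptor. Iron regulatory proteins bind hairpins in ferritin and transferrin receptor mRNAs when iron is short, and the metallothioneins, small cysteine-rich proteins that hold zinc and copper, are switched on through metal response elements (MRE) upstream of their genes. After injury of an artery, red cells and dead cells are cleared mainly by macrophages, which are known for high haem oxygenase 1 and ferritin.

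The hairpin of the iron regulatory proteins is shown first, since it is the element by which ferritin and the transferrin receptor are known to be read in opposite ways. It was searched in GRCm39 transcripts (GENCODE) as a C, 5 bases, the loop CAGTGN and 5 bases that pair with the first 5, with G-T pairs allowed and at least 4 of 5 further pairs below the C. The capitals mark the loop, and the sequences read 5′ to 3′ on the strand of the gene, with Fth1 and Tfrc on the plus strand and Ftl1 on the minus strand.
Fth1, 5′ UTR, chr19:9960097-9960123: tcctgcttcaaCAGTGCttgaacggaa
Ftl1, 5′ UTR, chr7:45109204-45109230: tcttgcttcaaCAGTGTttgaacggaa
Tfrc, 3′ UTR, chr16:32450038-32450064: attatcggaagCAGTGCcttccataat
Tfrc, 3′ UTR, chr16:32450417-32450443: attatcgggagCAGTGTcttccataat
Tfrc, 3′ UTR, chr16:32450482-32450508: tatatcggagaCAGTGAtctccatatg
Tfrc, 3′ UTR, chr16:32450529-32450555: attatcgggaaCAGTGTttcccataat
The Fth1 match lay at bases 88 to 114 of a 224-base 5′ UTR and the Ftl1 match at bases 79 to 105 of a 253-base 5′ UTR. The 4 Tfrc matches lay between bases 887 and 1404 of a 2461-base 3′ UTR. The same pattern was found in 5 of 20354 5′ UTRs (0.0246%) and in 12 of 20725 3′ UTRs (0.0579%). None of this was measured in the libraries, which count mRNA and not protein, and a match is a description of the letters.

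The metallothionein promoters are shown because Mt1 and Mt2 both stood highest in fibroblast-like cells at day 3. They lie on chromosome 8 on the plus strand (GRCm38.p6, RefSeq), and the 250 bases before each start are printed with matches to the core of the MRE, TGCACNC or TGCGCNC on either strand, in capitals.
Mt2, chr8:94172368-94172617: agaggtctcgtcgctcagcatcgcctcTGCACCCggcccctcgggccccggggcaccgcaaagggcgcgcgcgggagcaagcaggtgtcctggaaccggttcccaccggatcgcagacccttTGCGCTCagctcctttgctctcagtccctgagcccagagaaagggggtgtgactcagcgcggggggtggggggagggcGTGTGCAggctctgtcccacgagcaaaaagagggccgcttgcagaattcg
Mt1, chr8:94178839-94179088: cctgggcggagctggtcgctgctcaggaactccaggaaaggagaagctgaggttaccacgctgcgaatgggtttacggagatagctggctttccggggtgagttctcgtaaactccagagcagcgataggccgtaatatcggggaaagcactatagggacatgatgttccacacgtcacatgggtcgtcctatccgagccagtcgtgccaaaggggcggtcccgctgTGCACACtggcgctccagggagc
Upstream of Mt2 there were 3 matches, at 223 and 128 bases before the start on the plus strand and at 50 bases on the minus strand. Mt1 had 1 match upstream of the annotated start used here, at 23 bases. When the 50 bases after the start were added, Mt2 had 4 matches and Mt1 had 3. The upstream counts thus depend on where the start is placed, and no difference between the 2 genes is read from them. Of 32851 start regions of this length, 25.7% held at least 1 such match and 1.97% at least 3. The antioxidant response element, searched as TGACNNNGC on both strands, was found once at Mt2, not at Mt1, and in 12.4% of all regions. RefSeq start regions were matched for 7 of the 10 genes. Hmox1, Slc40a1 and Slc39a14 were not among them. Tfrc had 2 overlapping MRE matches, at 53 and 50 bases, in 1 of its 2 start regions, and Blvrb, Fth1, Ftl1 and Slc11a1 had no match to either motif in theirs.

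The libraries held 333, 1689, 3001 and 1138 barcodes at days 0, 3, 7 and 14, with 2672722, 18989081, 27973418 and 13329564 UMIs. After filtering, 5618 of 6161 barcodes were kept, with a median of 4828 to 9484 UMIs per cell, and clusters were given the name of a class from its marker genes. The fibroblast-like class held 233, 196, 164 and 491 cells at days 0, 3, 7 and 14, and the smooth muscle-like class 23, 106, 70 and 80. The monocyte/macrophage-like class held 3, 494, 865 and 159 cells, so that its levels at day 0 rested on 3 cells. Neutrophil-like cells were found at days 3 and 7 (233 and 118), dendritic-like cells from day 3 (162, 365 and 48), and T cell-like cells on every day (18, 65, 367 and 97). Endothelial-like cells numbered 7, 40, 56 and 24. Between 9.48% and 18.7% of the cells of a library stayed unnamed. The fibroblast-like class was held by different clusters on different days. At day 0 these were clusters led by Rbp4 and Lamc3 (141 cells) and by Clec3b and Gsn (82 cells). At day 3 they were the Clec3b/Gsn cluster (108 cells), a cluster led by Saa3 and Prg4 (42) and one led by Col2a1 and Wisp2 (38), which also led at day 7 (98 cells). At day 14 a cluster led by C1qtnf3 and Apod (210 cells) and the Col2a1/Wisp2 cluster (171) were the largest.

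Libraries shared cell barcodes. Days 0 and 3 had 152 in common, which is 45.6% of the barcodes of day 0, days 7 and 14 had 64, which is 5.62% of those of day 14, and days 3 and 7 had 1. In 104 of the 152 pairs the day 0 cell was the deeper, with a median of 17059 UMIs against 760.5, and a median of 99.6% of the shallower cell's UMIs fitted inside the deeper cell's counts, against 81.8% for the next shared barcode. Of the day 3 fibroblast-like cells, 92 of 196 were the shallower cell of such a pair, all of them in the Clec3b/Gsn cluster, but they held 1.62% of the UMIs of the class. Of the day 0 smooth muscle-like cells, 11 of 23 were, with 7.94% of the UMIs. Levels below are UMIs summed over the cells of a class and day and scaled to counts per 1000000 UMIs of that sum (CPM), so leaving these cells out moved few of them. Of 83 levels of the 10 genes that rested on at least 20 UMIs, 8 moved by more than 5%, and in the named classes the largest move was that of Ftl1 in day 0 smooth muscle-like cells, from 592 to 492 CPM. In the unnamed cells of day 0, 36 of 45 were such cells, and the Mt1 level there went from 597 to 91.5 CPM, and these unnamed cells enter below only through whole-library totals and shares.

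**Figure D1:**
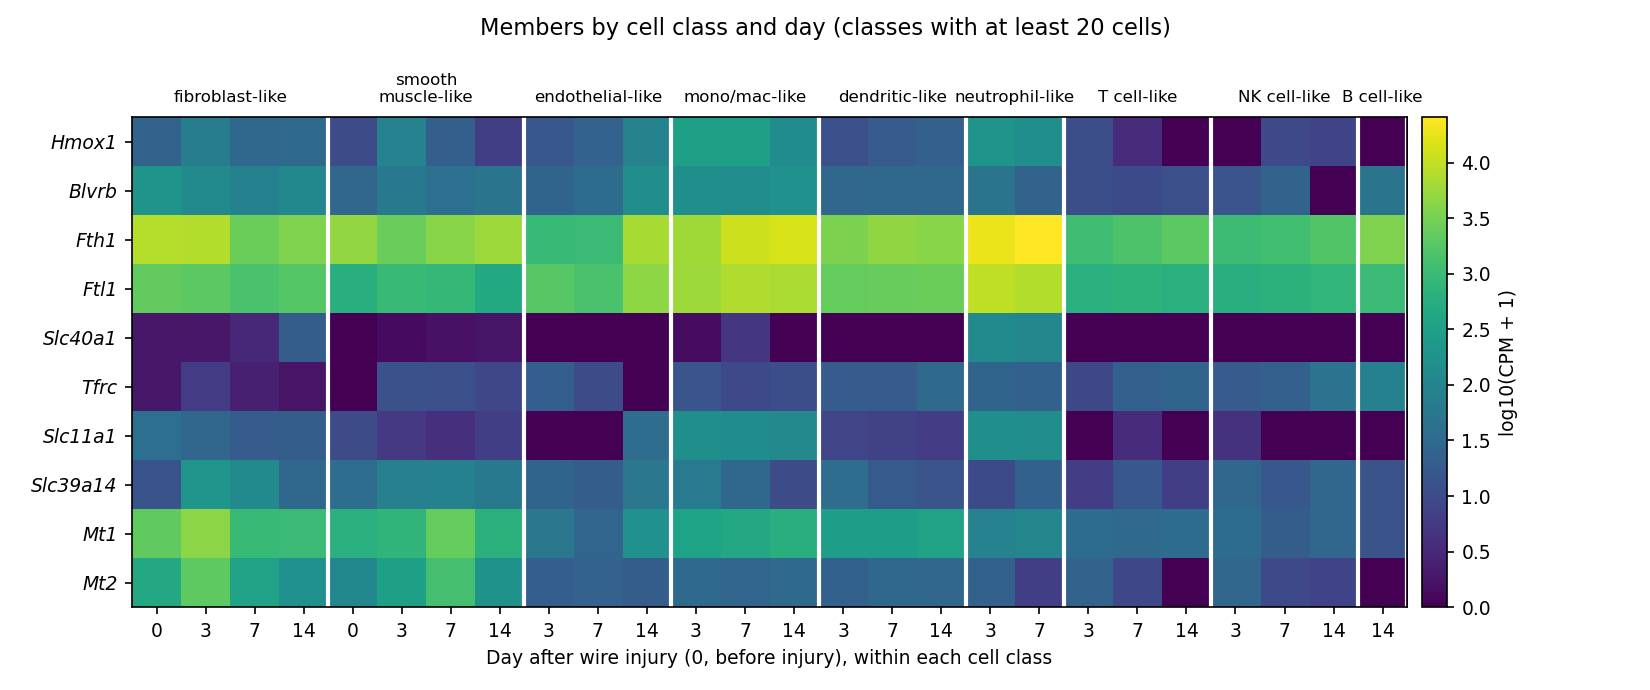
Level of each of the 10 genes (rows) in each cell class and day with at least 20 cells (columns), as log10(CPM + 1) of summed UMI counts on a color scale, with 1 library per day. Hmox1 and Slc11a1 are high in monocyte/macrophage-like and neutrophil-like columns, Slc40a1 in neutrophil-like columns, and Mt1 and Mt2 in fibroblast-like and smooth muscle-like columns.

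Hmox1, the inducible haem oxygenase, was highest in macrophages among the named classes and low in most others. In monocyte/macrophage-like cells it was measured at 313 CPM (298 to 329) at day 3, 314 CPM (302 to 326) at day 7 and 138 CPM (119 to 159) at day 14. The 3 such cells of day 0 held 3 Hmox1 UMIs. Days 3 and 7 were therefore alike within counting error and day 14 lay below both. After each cell had been thinned to 1000 UMIs, 18.1% of the monocyte/macrophage-like cells of day 3 held an Hmox1 UMI, 12.9% at day 7 and 11.0% at day 14, with 8, 13 and 23 shallower cells left out. Without thinning the shares were 59.3%, 44.6% and 34.6%. In T cell-like cells of day 7, which should lack the gene, 0 of 364 thinned cells held one and 1.63% did unthinned, at a median of 5576 UMIs against 9588 in the macrophage-like cells.

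Neutrophil-like cells came next, with 192 CPM of Hmox1 (161 to 229) at day 3 and 157 CPM (119 to 203) at day 7, and these intervals overlapped. Dendritic-like cells held 11.0, 17.3 and 21.6 CPM at days 3, 7 and 14, far under the macrophage-like cells of the same libraries. T cell-like and NK cell-like cells held at most 10.7 CPM on any day. In the fibroblast-like class Hmox1 was measured at 24.8 CPM (18.7 to 32.3) at day 0, 71.6 CPM (64.0 to 79.9) at day 3, 29.9 CPM (25.2 to 35.3) at day 7 and 32.2 CPM (28.6 to 36.2) at day 14. Day 3 thus stood above the other 3 days, which overlapped. The day 3 level rested on the deepest cells. Without cells of over 30000 UMIs, which were 59 of 196 and held 86.0% of the UMIs of the class, it was 28.8 CPM. In smooth muscle-like cells Hmox1 stood at 87.3 CPM at day 3, against 20.9 CPM at day 7, 5.46 CPM at day 14 and a single UMI (9.25 CPM) at day 0, and without the cells of over 30000 UMIs the day 3 level was 26.3 CPM.

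Within the macrophage-like class Hmox1 differed several-fold between clusters. These clusters were built without the 10 genes. The cluster led by Ccl6 held 406 CPM at day 3 (312 cells) and 1362 CPM at day 7 (55 cells). The cluster led by Plac8 and Cxcl9 held 77.7 CPM at day 3 (62 cells) and 250 CPM at day 7 (420 cells). The C1q-bearing cluster led by Ms4a7 held 91.1, 178 and 150 CPM at days 3, 7 and 14 (51, 270 and 129 cells). Hmox1 was therefore higher at day 7 than at day 3 in each of these 3 clusters, although the class as a whole gave the same level on both days. The Ccl6 cluster made up 312 of 494 cells of the class at day 3 and 55 of 865 at day 7. In the smaller cluster led by Rsad2 and Ifit1, which are interferon-induced genes, the order was the other way, with 294 and 130 CPM at days 3 and 7. A small cluster led by Itgal and Pou2f2 also held less at day 7, 49.99 CPM (16.2 to 117, 5 UMIs) against 109 CPM (40.0 to 237, 6 UMIs), and these intervals overlapped. Cells without a class name also held the transcript, at 433 CPM (404 to 464) at day 3, above the macrophage-like level, 205 CPM at day 7 and 90.4 CPM at day 14. Nearly all of their 819 UMIs of day 3 lay in cells of 2 cycling clusters that could not be tied to a class, with 470 UMIs (604 CPM) in 33 cells of the cluster led by Mki67 and Top2a and 339 UMIs (383 CPM) in 11 cells of the one led by Timp1 and Ube2c. The best matching marker list was that of monocytes and macrophages in the former (11 markers) and that of fibroblasts in the latter (7 markers). Of all Hmox1 UMIs, monocyte/macrophage-like cells supplied 50.2% at day 3, 76.2% at day 7 and 35.3% at day 14, unnamed cells 26.2%, 14.2% and 6.11%, and fibroblast-like cells supplied 87.3% of the 63 UMIs of day 0. Over whole libraries the gene stood at 23.8, 171, 135 and 40.1 CPM on the 4 days in order. The summed level of 5 red-cell genes in the macrophage-like class was 666, 97.5 and 7.45 CPM at days 3, 7 and 14, while Hmox1 there was alike at days 3 and 7. Their part in the Hmox1 level was not tested.

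**Figure D2:**
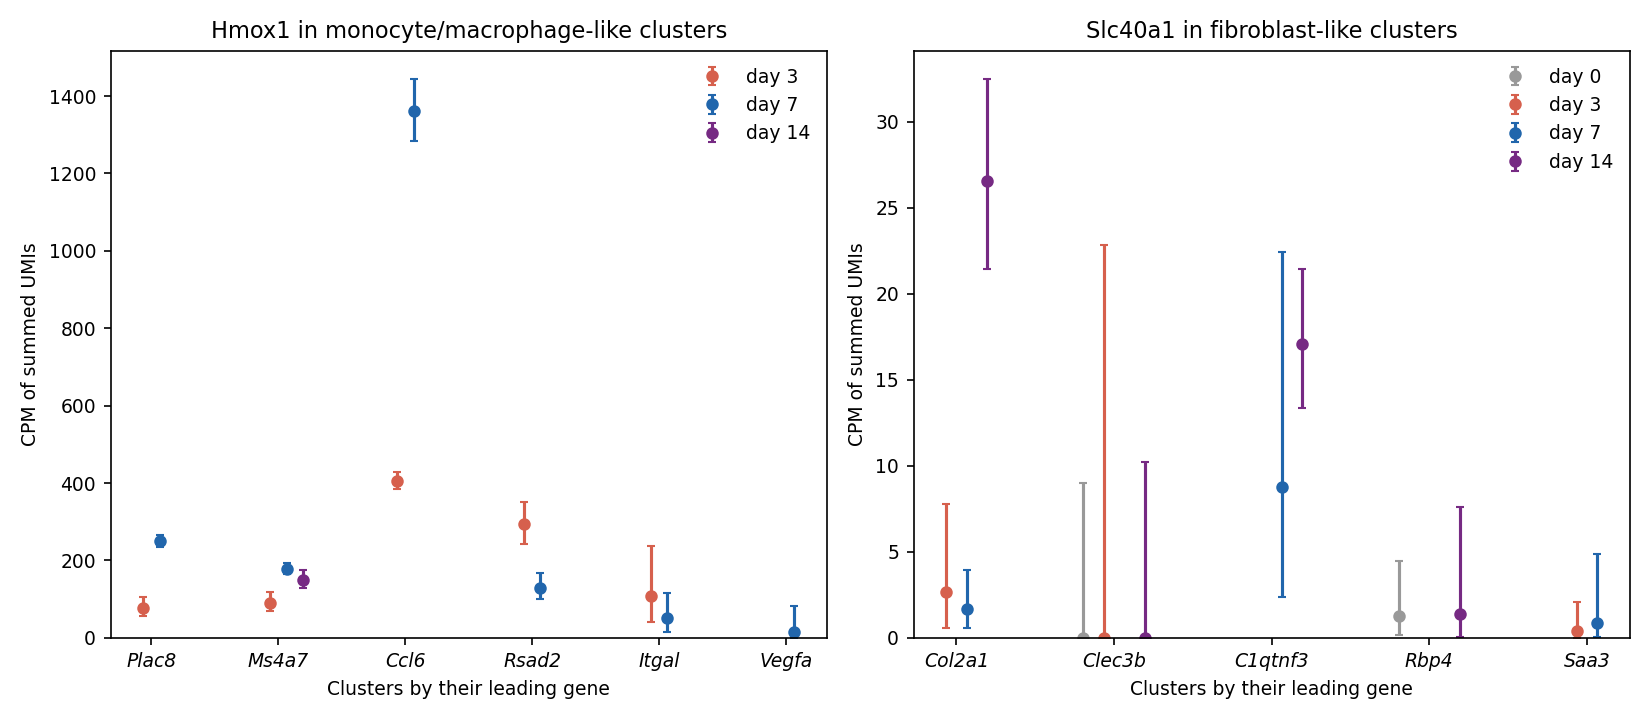
Levels in CPM of summed UMIs (linear axes) of Hmox1 in monocyte/macrophage-like clusters and of Slc40a1 in fibroblast-like clusters, named by their leading gene and colored by day, for clusters with at least 20 cells on that day, with bars for the 95% Poisson intervals. Hmox1 is highest in the Ccl6 cluster of day 7 at 1362 CPM, and Slc40a1 in the Col2a1/Wisp2 and C1qtnf3/Apod clusters of day 14 at 26.5 and 17.1 CPM.

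Blvrb, the biliverdin reductase B that also acts on flavins, showed another distribution and, among the larger classes, was shared between macrophages and fibroblasts. Macrophage-like cells held 156, 143 and 170 CPM at days 3, 7 and 14, with intervals from 146 to 168, 135 to 151 and 149 to 193. In fibroblast-like cells it was measured at 189 CPM (172 to 208) at day 0, 129 CPM (119 to 140) at day 3, 86.9 CPM (78.7 to 95.7) at day 7 and 113 CPM (106 to 120) at day 14. The naive artery therefore gave the highest fibroblast-like level. Day 7 gave the lowest, but without cells of over 30000 UMIs, which were 78 of 164 and held 78.2% of the UMIs of the class at day 7, both later days stood at 116 CPM. At day 0 the Clec3b/Gsn cluster held 332 CPM and the Rbp4/Lamc3 cluster 148 CPM, and at day 14 the same clusters held 216 and 110 CPM. Smooth muscle-like cells stood lower, at 27.7, 59.5, 40.5 and 49.1 CPM over the 4 days, the first from 3 UMIs, and the second was 28.1 CPM with cells of over 30000 UMIs left out. Dendritic-like cells held 27.5 to 29.6 CPM and neutrophil-like cells 47.7 and 24.8 CPM at days 3 and 7. Over all days, B cell-like cells held 146 CPM (92.4 to 219, 23 UMIs) and plasmacytoid dendritic-like cells 122 CPM (68.1 to 201, 15 UMIs).

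**Figure D3:**
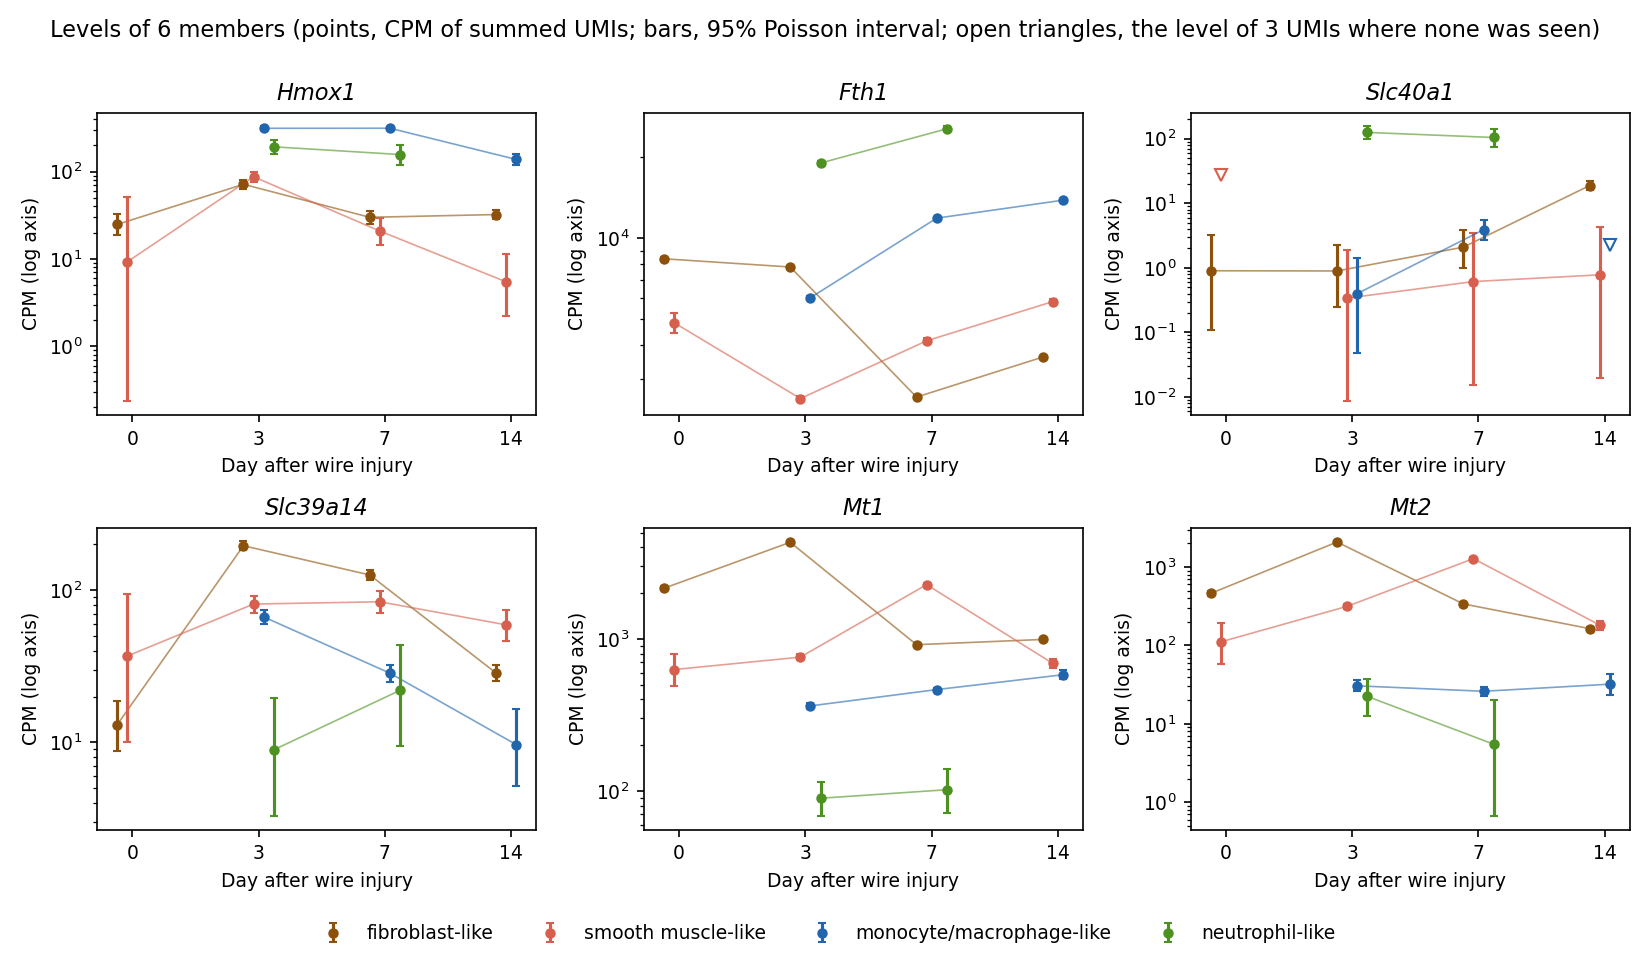
Levels of Hmox1, Fth1, Slc40a1, Slc39a14, Mt1 and Mt2 in CPM (log axes) against day for 4 cell classes, with bars for the 95% Poisson intervals and open triangles at the level of 3 UMIs where none was seen. Fth1 climbs with day in the monocyte/macrophage-like class (6012, 11882 and 13857 CPM) and is lower after day 3 in the fibroblast-like class (8391, 7819, 2567 and 3617 CPM).

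Fth1, the ferritin heavy chain with the ferroxidase centre, was the most abundant of the 10 transcripts, and between days 3 and 7 it went up in macrophage-like and down in fibroblast-like cells. Levels between genes are compared here as UMIs of a 3′ library, which do not scale with transcript length but can differ in capture. In monocyte/macrophage-like cells Fth1 was measured at 6012 CPM (5944 to 6080) at day 3, 11882 CPM (11809 to 11954) at day 7 and 13857 CPM (13659 to 14058) at day 14. Every interval lay above the one before. In fibroblast-like cells it was measured at 8391 CPM (8271 to 8513) at day 0, 7819 CPM (7737 to 7902) at day 3, 2567 CPM (2522 to 2613) at day 7 and 3617 CPM (3577 to 3656) at day 14. Days 7 and 14 thus held well under the level of the naive artery. Fth1 was highest in neutrophil-like cells, at 19046 CPM at day 3 and 25534 CPM at day 7, and low in T cell-like cells (1144 to 1955 CPM), NK cell-like cells (1045 to 1627 CPM) and, at days 3 and 7, endothelial-like cells (960 and 991 CPM).

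By cluster, the fibroblast-like level of Fth1 was lower at day 7 than at day 3 within both clusters of at least 20 cells on those days, at 8941 and 3783 CPM in Saa3/Prg4 cells and at 6350 and 1983 CPM in Col2a1/Wisp2 cells. In the 2 clusters with at least 20 cells both at day 0 and at day 14, Fth1 stood at 7720 and 6613 CPM (Rbp4/Lamc3) and at 11698 and 9566 CPM (Clec3b/Gsn). The Col2a1/Wisp2 cluster, which had under 20 cells at day 0, stood at 3295 CPM at day 14. The C1qtnf3/Apod cluster held 2864 CPM at day 14. Leaving out cells of over 30000 UMIs moved the class level at day 7 from 2567 to 2807 CPM. In smooth muscle-like cells Fth1 was measured at 4854, 2535, 4155 and 5817 CPM on the 4 days, with day 3 lowest and day 14 highest. Without cells of over 30000 UMIs the levels of days 3, 7 and 14 were 2558, 2371 and 5328 CPM, so that day 7 was then the lowest. The day 0 level there was 5052 CPM without the shallower cells of shared barcodes.

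Ftl1, the ferritin light chain, was steadier over time than Fth1. Macrophage-like cells held 5869, 7606 and 7136 CPM at days 3, 7 and 14, and fibroblast-like cells 2238, 1982, 1400 and 1764 CPM at days 0, 3, 7 and 14. Neutrophil-like cells again stood highest, at 9664 and 7918 CPM. Smooth muscle-like cells held 592, 967, 848 and 468 CPM, the first being 492 CPM without the shallower cells of shared barcodes. With cells of over 30000 UMIs left out, days 3, 7 and 14 stood at 593, 420 and 441 CPM, none of them above day 0 beyond counting error. Dendritic-like cells held 2337, 2434 and 2595 CPM. Ftl1 has a near-identical copy in the files, Ftl1-ps1, to which 3727 UMIs were assigned (61.6 CPM over all cells), so Ftl1 values may lack reads that the counting could not place.

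The balance of heavy to light chain mRNA therefore differed between classes and days. In macrophage-like cells the ratio of Fth1 to Ftl1 UMIs was 1.02 (1.01 to 1.04) at day 3, 1.56 (1.55 to 1.58) at day 7 and 1.94 (1.89 to 1.99) at day 14. In fibroblast-like cells it was 3.75 (3.63 to 3.87) in the naive artery, 3.94 (3.85 to 4.04) at day 3, 1.83 (1.78 to 1.89) at day 7 and finally 2.05 (2.01 to 2.09) at day 14. The ratio thus nearly met between these classes at day 14 from values far apart at day 3. Smooth muscle-like cells had the widest range, 8.20 (6.32 to 10.8) in the naive artery, 2.62 (2.51 to 2.74) at day 3, 4.90 (4.62 to 5.19) at day 7 and finally 12.4 (11.4 to 13.5) at day 14, and the first was 10.3 without the shallower cells of shared barcodes. With cells of over 30000 UMIs left out, which held 81.9% of the UMIs of the class at day 3, the ratios of days 3, 7 and 14 were 4.32, 5.64 and 12.1. Neutrophil-like cells went from 1.97 (1.91 to 2.03) at day 3 to 3.22 (3.09 to 3.36) at day 7. Endothelial-like cells had less heavy than light chain mRNA at day 3, with a ratio of 0.530 (0.443 to 0.633), and at day 7, with 0.715 (0.649 to 0.788), but more at day 14, with 1.48 (1.25 to 1.74).

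**Figure D4:**
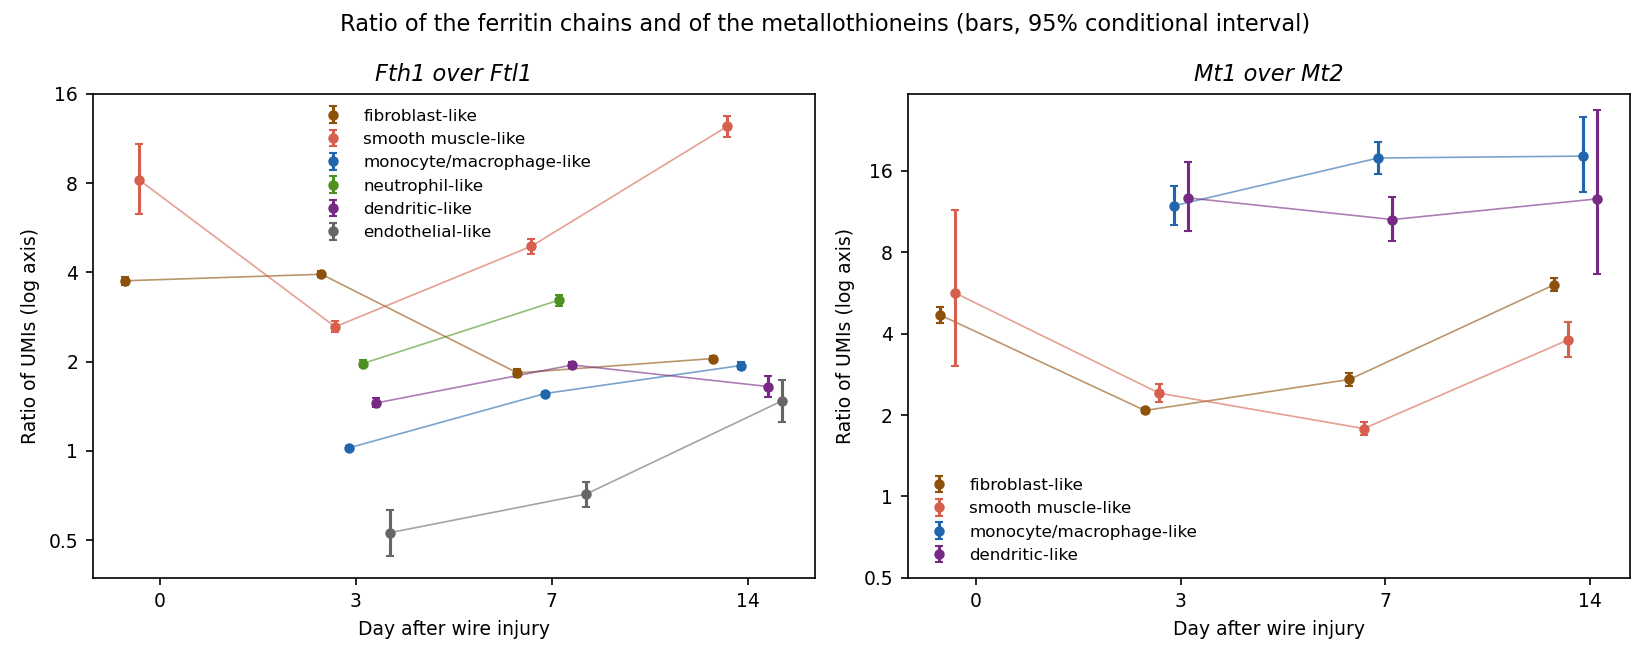
Ratio of Fth1 to Ftl1 UMIs and of Mt1 to Mt2 UMIs (log axes) by day in the main cell classes, with bars for the exact 95% intervals. The ferritin ratio climbs in monocyte/macrophage-like cells from 1.02 to 1.94, and the metallothionein ratio dips in fibroblast-like cells to 2.08 at day 3 and stands at 6.06 at day 14.

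Slc40a1 encodes ferroportin, the known exporter of iron from cells, and its UMIs lay in few classes. Neutrophil-like cells held 125 CPM (99.9 to 155, 84 UMIs) at day 3 and 105 CPM (74.0 to 144, 38 UMIs) at day 7. After thinning, 13.5% and 9.43% of these cells held an Slc40a1 UMI, with 11 and 12 shallower cells left out, and without thinning 24.0% and 18.6% did. T cell-like, NK cell-like, dendritic-like, B cell-like and endothelial-like cells held none on any day, and 0 of 364 thinned T cell-like cells of day 7 held one, with an exact binomial upper limit of 1.01%. At day 7, 3 UMIs would have been 1.31 CPM in T cell-like and 0.675 CPM in dendritic-like cells. In smaller sums the limit was far higher. At day 14 it was 20.4 CPM in NK cell-like, 37.2 CPM in B cell-like and 55.9 CPM in endothelial-like cells, so lower levels there could not have been seen. Monocyte/macrophage-like cells held 2 UMIs at day 3, 34 UMIs (3.90 CPM) at day 7, in 0.925% of the 865 cells, and none at day 14, where 3 UMIs would have been 2.24 CPM.

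The other class with Slc40a1 was the fibroblast-like class, and it held the transcript late. There were 2 UMIs at day 0 (0.902 CPM), 4 at day 3 (0.895 CPM), 10 at day 7 (2.09 CPM) and 167 at day 14 (18.8 CPM, 16.1 to 21.9). The day 14 level lay above those of the other days, whose intervals overlapped. It was 18.0 CPM without the cells of over 30000 UMIs, and 19.3% of the 491 cells held a UMI, or 0.833% after thinning to 1000 UMIs, which is near the level of a single UMI per cell. That thinned share lay under the upper limit of 1.01% for T cell-like cells of day 7, so thinned shares do not part these 2 classes. By cluster at day 14, Col2a1/Wisp2 cells held 26.5 CPM (21.4 to 32.5) and C1qtnf3/Apod cells 17.1 CPM (13.4 to 21.5). The Rbp4/Lamc3 cluster held 1.36 CPM at day 14 and the Clec3b/Gsn cluster held no UMI. The transcript thus lay in the clusters that the naive artery lacked or held in under 20 cells. In the Col2a1/Wisp2 cluster itself it stood at 2.7 CPM at day 3 and 1.7 CPM at day 7. The source of Slc40a1 in the whole library changed accordingly, with 90.3% of its 93 UMIs from neutrophil-like cells at day 3 and 98.2% of its 170 UMIs from fibroblast-like cells at day 14.

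Tfrc, the transferrin receptor that brings in transferrin-bound iron, was low in most classes and lowest in fibroblasts. Fibroblast-like cells held 0.902, 4.92, 1.47 and 0.676 CPM at days 0, 3, 7 and 14, and the 22 UMIs of day 3 all lay in cells of over 30000 UMIs. T cell-like cells held 35.0, 7.998, 21.9 and 25.7 CPM, the last falling to 11.8 CPM without 1 cell of over 30000 UMIs, and dendritic-like cells 18.2, 17.1 and 32.3 CPM at days 3, 7 and 14. Macrophage-like cells held 13.6, 8.37 and 10.4 CPM on the same days, and NK cell-like cells 17.2, 21.7 and 47.6 CPM, from 5, 21 and 7 UMIs. The highest levels were in few cells. Plasmacytoid dendritic-like cells held 203 CPM over all days (131 to 299, 25 UMIs), and an unnamed cluster of 73 cells led by Mmp9, Retnla and Acp5 held 104 CPM (72.7 to 144, 36 UMIs).

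Slc11a1, the phagosomal transporter of iron and other divalent metals, was highest in phagocytes. Macrophage-like cells held 154 CPM (144 to 166) at day 3, 140 CPM (132 to 148) at day 7 and 119 CPM (101 to 139) at day 14, and neutrophil-like cells 155 CPM (127 to 188) at day 3 and 151 CPM at day 7. The macrophage-like and neutrophil-like levels overlapped at days 3 and 7. Fibroblast-like cells held 39.7, 27.7, 18.0 and 18.9 CPM at days 0, 3, 7 and 14, with a ratio of 0.454 (0.333 to 0.618) at day 7 against day 0. Dendritic-like cells held only 5.39 to 7.18 CPM, and T cell-like cells of day 7 held 2.62 CPM.

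Slc39a14, a plasma membrane importer of zinc and of iron not bound to transferrin, stood far higher in fibroblast-like cells of days 3 and 7 than in those of the naive artery. In fibroblast-like cells it was measured at 13.1 CPM (8.76 to 18.8) at day 0, 196 CPM (183 to 210) at day 3, 126 CPM (116 to 137) at day 7 and 28.6 CPM (25.2 to 32.4) at day 14. None of these intervals overlapped. After thinning, 1.44%, 16.7%, 8.02% and 2.71% of the cells held a UMI, with 25, 76, 2 and 11 shallower cells left out, and 11.6%, 39.8%, 65.9% and 36.7% did without thinning. In T cell-like cells of day 7 the thinned share was 2.75%, above that of day 0 and near that of day 14, and their summed level was 14.4 CPM (9.93 to 20.3), under that of fibroblast-like cells of day 14. The unthinned share of fibroblast-like cells at day 3 counts 92 of 196 cells that were the shallower of a shared barcode. The thinned share of day 3 counts some of them too, as 120 cells were thinned and 104 of the class were not such cells. Without the shallower cells of shared barcodes the day 3 level was 199 CPM, and without cells of over 30000 UMIs the levels of days 3, 7 and 14 were 88.1, 137 and 27.8 CPM.

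By cluster, Slc39a14 was highest in Saa3/Prg4 fibroblast-like cells, at 289 CPM at day 3 and 287 CPM at day 7, against 65.5 and 79.3 CPM in Col2a1/Wisp2 cells of the same days. The median cell of the Saa3/Prg4 cluster held 56131 UMIs. Smooth muscle-like cells held 37.0, 81.2, 84.0 and 59.3 CPM at days 0, 3, 7 and 14, the first from 4 UMIs. Without the shallower cells of shared barcodes the day 0 level there was 30.1 CPM, from 3 UMIs. Macrophage-like cells held 66.8 CPM (59.9 to 74.4), 28.5 CPM and 9.69 CPM (5.16 to 16.6) at days 3, 7 and 14. Dendritic-like cells held 35.9, 16.4 and 13.5 CPM on those days.

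Mt1 and Mt2, the metallothioneins that bind zinc and copper, were highest in fibroblast-like cells at days 0 and 3 and in smooth muscle-like cells at day 7, among classes of at least 20 cells. Mt1 was measured in fibroblast-like cells at 2154 CPM (2093 to 2216) at day 0, 4324 CPM (4263 to 4386) at day 3, 916 CPM (889 to 944) at day 7 and 992 CPM (972 to 1013) at day 14. Mt2 was measured there at 460 CPM (432 to 489), 2080 CPM (2038 to 2122), 338 CPM (322 to 355) and 164 CPM (155 to 172) on the same days. Day 3 was highest for both. Day 7 stood below day 14 for Mt1 and above it for Mt2, but without cells of over 30000 UMIs it stood above for both, at 1012 and 974 CPM for Mt1 and 275 and 168 CPM for Mt2. Without the shallower cells of shared barcodes the day 3 levels were 4372 and 2110 CPM. Without cells of over 30000 UMIs they were 2680 and 1177 CPM. After thinning, 73.6%, 74.2%, 38.3% and 42.5% of the fibroblast-like cells held an Mt1 UMI. The share with Mt1 was thus alike at days 0 and 3, but the 2 sets of thinned cells were not separate. At day 3, 120 cells were thinned, while 104 cells of the class were not the shallower of a shared barcode. Some thinned cells of day 3 therefore shared a barcode with a deeper cell of day 0, which also holds for Mt2. For Mt2 the thinned share was 38.0% at day 0, had an interval from 40.7% to 59.3% at day 3, and was 20.4% and 11.7% at days 7 and 14. Unthinned, 92.3%, 79.6%, 87.2% and 91.2% held an Mt1 UMI and 74.7%, 57.1%, 61.6% and 58.5% an Mt2 UMI. At day 3 the unthinned shares count 92 of 196 cells that were the shallower of a shared barcode. Such cells weigh more in a share than in a sum. In thinned T cell-like cells of day 7 the shares were 3.30% and 0.549%.

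The metallothioneins were densest in the Saa3/Prg4 cluster of day 3, with 5921 CPM of Mt1 and 3072 CPM of Mt2, against 1409 and 851 CPM in that cluster at day 7. Col2a1/Wisp2 cells of day 3 held 2522 and 694 CPM. In the naive artery the Rbp4/Lamc3 cluster held more Mt1 (2519 CPM) than the Clec3b/Gsn cluster (1341 CPM). With all cells counted, the peak in smooth muscle-like cells was later. Mt1 stood at 629, 759, 2276 and 689 CPM and Mt2 at 111, 315, 1277 and 182 CPM at days 0, 3, 7 and 14. That peak was carried by the 17 of 70 smooth muscle-like cells of day 7 with over 30000 UMIs, which held 64.7% of the UMIs, and without such cells the day 7 levels were 651 and 311 CPM, and the day 3 levels 338 and 216 CPM. The day 14 levels were then 765 CPM (707 to 827) and 220 CPM. Mt1 thus no longer stood highest at day 7, while Mt2 did. At day 0 the levels without the shallower cells of shared barcodes were 653 and 110 CPM, from 12 cells.

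Macrophage-like and dendritic-like cells held Mt1 with little Mt2. In macrophage-like cells there were 363, 464 and 581 CPM of Mt1 at days 3, 7 and 14 but 30.5, 26.01 and 32.0 CPM of Mt2. The ratio of Mt1 to Mt2 UMIs was 11.9 (10.1 to 14.1), 17.8 (15.6 to 20.5) and 18.1 (13.3 to 25.3) there, and 12.7, 10.6 and 12.6 in dendritic-like cells. The dendritic-like cluster led by Ccr7 and Ccl22 was an exception, with a ratio of 4.86 (3.38 to 7.17) at day 3 and 2.23 (1.65 to 3.04) at day 7, against 30.3 and 18.7 in the Cd209a/Clec10a cluster. It held 110 and 122 CPM of Mt2 on these days. In fibroblast-like cells it was 4.68 (4.38 to 5.02) in the naive artery, 2.08 (2.03 to 2.13) at day 3, 2.71 (2.56 to 2.87) at day 7 and finally 6.06 (5.73 to 6.41) at day 14. The share of Mt2 was thus greatest at day 3 in fibroblast-like cells and at day 7 in smooth muscle-like cells, where the ratio was 1.78 (1.69 to 1.88) against 5.67 (3.04 to 11.5) at day 0. The latter turned without cells of over 30000 UMIs, with ratios of 1.57 (1.23 to 1.995) at day 3 and 2.09 (1.75 to 2.52) at day 7. Neutrophil-like cells, the richest in ferritin, held only 89.5 and 102 CPM of Mt1.

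Each class was then set against its earliest well-sampled day. Genes with at least 20 UMIs over a pair of sums were compared, and a gene was counted as past 2-fold where the log2 ratio of CPM + 10 reached 1 in either direction. All contrasts of a class share its reference day, and the share of all genes past the same fold is given as the background. Since the 10 genes and the pathway list were chosen with earlier results of these data known, counts beside this background are descriptions and not tests. In fibroblast-like cells at day 3 against day 0, 4 of the 9 genes compared were higher and none lower, against 3.46% and 3.92% of all 10794 genes. The class was held by the Rbp4/Lamc3 and Clec3b/Gsn clusters at day 0 and mainly by the Saa3/Prg4 and Col2a1/Wisp2 clusters at day 3 once the shallower cells of shared barcodes are set aside. Slc39a14 was 15.0-fold higher (10.4 to 22.5), Mt2 4.52-fold (4.24 to 4.83), Hmox1 2.89-fold (2.16 to 3.92) and Mt1 2.01-fold (1.94 to 2.07), just past the limit. The median log2 ratio of the 9 genes was 0.45, against -0.07 over all genes. The count was again 4 without the shallower cells of shared barcodes, but it was 2 without cells of over 30000 UMIs and 1, for Slc39a14, when each cell's CPM was averaged. Without cells of over 30000 UMIs, Slc39a14 was 6.74-fold and Mt2 2.56-fold higher. Hmox1 (1.16-fold) and Mt1 (1.24-fold) were then not past 2-fold.

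At day 7 against day 0, 1 of 8 genes was higher and 3 were lower, against 3.74% and 3.25% of 10989 genes, with the Col2a1/Wisp2 cluster as the main holder of the class at day 7. Slc39a14 was 9.64-fold higher (6.64 to 14.5), and the ratio of Fth1 was 0.306 (0.299 to 0.313), of Mt1 0.425 (0.408 to 0.443) and of Blvrb 0.459 (0.3998 to 0.527). The log2 ratio of Blvrb was -0.66 without cells of over 30000 UMIs, so it was no longer past 2-fold. The median of the 8 was -0.75 against -0.03. At day 14, 1 of 9 was higher and 3 were lower, against 2.39% and 1.56% of 11635 genes, with medians of -0.70 and -0.01, and with the C1qtnf3/Apod and Col2a1/Wisp2 clusters as the main holders. Slc40a1 was 20.9-fold higher, with an interval from 5.69 to 174 since day 0 held 2 UMIs. The ratio of Fth1 was 0.431 (0.423 to 0.439), of Mt1 0.461 (0.445 to 0.477) and of Mt2 0.356 (0.328 to 0.386). The dissociation stress genes, 10 in number, summed to 4699, 4466, 7306 and 10078 CPM in this class at days 0, 3, 7 and 14, and their part in these ratios was not tested.

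**Figure D5:**
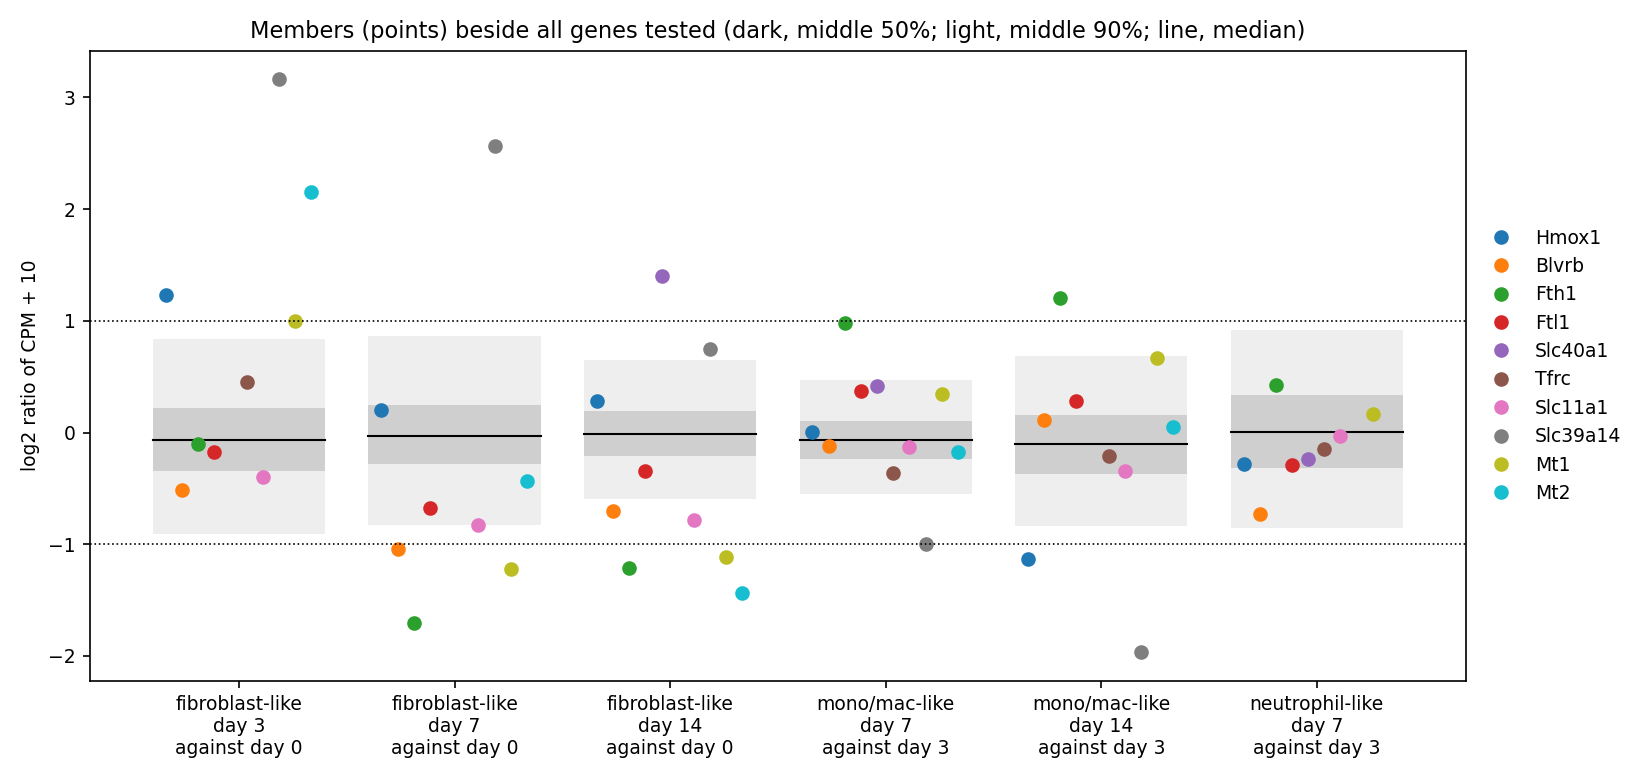
Log2 ratio of CPM + 10 in 6 contrasts of fibroblast-like, monocyte/macrophage-like and neutrophil-like cells, with a point for each of the 10 genes compared, dark and light boxes for the middle 50% and 90% of all genes, a line for their median and dotted lines at 2-fold. In fibroblast-like cells of day 3, Slc39a14 (3.16), Mt2 (2.15), Hmox1 (1.23) and Mt1 (1.00) lie at or beyond the line of 2-fold.

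The smooth muscle-like class was held mostly by a cluster led by Myh11 and Tagln (7, 69, 56 and 71 cells at days 0, 3, 7 and 14) and by a shallower one led by Hspb7 and Tpm2 (16, 35, 9 and 9 cells), which was the larger at day 0 alone. In this class, 3 of 8 genes were higher at day 3 and none lower, against 15.5% and 8.0% of 9427 genes, with medians of 0.92 and 0.08. These were Hmox1, Mt2 (2.84-fold, 1.62 to 5.51) and Tfrc. The Hmox1 ratio of 9.44 had an interval from 1.68 to 374, since day 0 held 1 UMI, which lay in the shallower cell of a shared barcode, so that the 12 remaining cells held 0. Tfrc had 34 UMIs at day 3 and 0 at day 0, where 3 UMIs would have been 27.7 CPM, above its 11.6 CPM of day 3, so its place rests on the 10 CPM added. At day 7, 3 of 7 were higher and none lower, against 16.6% and 6.3% of 8251 genes, with medians of 0.68 and 0.09. Mt2 was 11.5-fold higher (6.57 to 22.3), Mt1 3.62-fold (2.85 to 4.67) and Slc39a14 2.27-fold (0.867 to 8.46). At day 14, none of 6 was past 2-fold, against 9.36% higher and 5.21% lower of 7038 genes. The counts were 4, 4 and 0 without the shallower cells of shared barcodes. Without cells of over 30000 UMIs none of the 3 genes named for day 3 was counted, since Hmox1 and Tfrc fell under 20 UMIs and the log2 ratio of Mt2 was 0.90, and the 1 gene past 2-fold was Slc39a14 (1.36). At day 7 without such cells the count was again 3 but not of the same genes, as Mt1 (0.05) was lost, Fth1 (-1.03) was lower, and Mt2 (1.41) and Slc39a14 (1.12) were higher. The count was 1 at day 7 when each cell's CPM was averaged. Dissociation stress genes summed to 13249, 7429, 8153 and 9693 CPM in this class at days 0, 3, 7 and 14, highest on the reference day. Their part in these ratios was not tested.

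In monocyte/macrophage-like cells, none of the 10 genes was past 2-fold at day 7 against day 3, against 1.33% higher and 0.863% lower of 11013 genes. The Ccl6 cluster held most of the class at day 3, the Plac8/Cxcl9 and Ms4a7/C1qa clusters at day 7 and the Ms4a7/C1qa cluster at day 14. The nearest to the limit were Fth1, 1.98-fold higher (1.95 to 2.00), and Slc39a14, at a ratio of 0.427 (0.361 to 0.505). At day 14 against day 3, 1 of 9 was higher and 2 were lower, against 2.56% and 2.92% of 9916 genes, with medians of 0.05 and -0.11. Fth1 was 2.31-fold higher (2.26 to 2.35), Hmox1 stood at 0.440 (0.376 to 0.513) and Slc39a14 at 0.145 (0.0764 to 0.251). These counts were the same without the shallower cells of shared barcodes. The dissociation stress genes summed to 5668, 12444 and 19208 CPM in this class at days 3, 7 and 14, in the same order as Fth1, and their part was not tested.

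The other leukocytes gave no gene past 2-fold. In dendritic-like cells it was 0 of 9 at day 7 against day 3, against 0.781% higher and 0.355% lower of all genes, and 0 of 8 at day 14, against 2.86% and 3.48%. The nearest to the limit there was Slc39a14, at ratios of 0.458 (0.330 to 0.633) at day 7 and 0.375 (0.119 to 0.910) at day 14. Several other settings, given below, had a gene past 2-fold on these days. In neutrophil-like cells it was 0 of 8 at day 7, against 3.74% and 2.67%. T cell-like cells had 0 of 7 at day 7, against 2.26% and 1.31%, and 0 of 3 at day 14, against 4.27% and 2.75%. NK cell-like cells had 0 of 6, against 3.09% and 2.35%, and 0 of 2, against 3.58% and 5.76%. Counts of 0 among so few genes are near these shares of all genes.

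Endothelial-like cells were few and shallow, and their values are weak. At day 7 against day 3 none of 6 genes was past 2-fold, against 11.7% higher and 5.71% lower of 6339 genes. At day 14, 3 of 3 were higher, against 11.1% higher and 29.6% lower of 2239 genes, with medians of 1.46 and -0.38. Fth1 was 7.10-fold higher (5.95 to 8.50), Ftl1 2.55-fold (2.16 to 3.01) and Mt1 3.07-fold (1.12 to 8.14, from 9 and 11 UMIs). When each cell's CPM was averaged, 1 of these was past 2-fold and the log2 ratio of Ftl1 was -0.58, so its direction turned. At day 3 the reference rested on 2 of 40 cells, which had over 30000 UMIs each and held 69.7% of the UMIs of the class. Without such cells 1 gene was past 2-fold at day 14, Fth1 (3.99-fold), with Ftl1 at a log2 ratio of 0.80, and 1 at day 7, Ftl1, lower at a ratio of 0.363. The count was again 3 without the 6 of 24 cells that were the shallower of a shared barcode. Stress genes summed to 3025 CPM at day 3 and 12674 CPM at day 14 in this class.

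Macrophage-like and fibroblast-like cells of the same library were compared next, since they shared digestion and sequencing. At day 3, 3 of 9 genes were higher in macrophage-like cells and 3 lower, against 12.7% and 13.8% of 11560 genes, with medians of 0.26 and 0.02. Slc11a1 was 5.57-fold higher (4.599 to 6.78), Hmox1 4.38-fold (3.88 to 4.95) and Ftl1 2.96-fold (2.89 to 3.03), whereas the ratio was 0.0147 for Mt2, 0.0838 for Mt1 and 0.341 for Slc39a14. At day 7, 4 of 10 were higher and 2 lower, against 11.3% and 15.0% of 12166 genes, with medians of 0.67 and -0.06. Hmox1 was 10.5-fold higher (8.86 to 12.5), Slc11a1 7.78-fold, Ftl1 5.43-fold and Fth1 4.63-fold, with Mt2 at 0.0769 and Slc39a14 at 0.226. At day 14, 4 of 10 were higher and 2 lower, against 10.7% and 16.4% of 11952 genes, with medians of 0.75 and -0.16. Slc11a1 was 6.30-fold, Hmox1 4.28-fold, Ftl1 4.05-fold and Fth1 3.83-fold higher, and Mt2 stood at 0.196. Slc40a1 had no UMI in the macrophage-like cells of day 14 and 167 in the fibroblast-like cells, a ratio of at most 0.119 at 3 UMIs. Fth1 thus went from near parity at day 3 to several-fold higher in macrophage-like cells at days 7 and 14. Once cells of over 30000 UMIs were left out, the ratios of day 3 were 11.2 for Hmox1, 0.0262 for Mt2 and 0.131 for Mt1. Slc39a14 was then no longer past 2-fold (66.5 against 88.1 CPM), whereas Tfrc was, with 66 UMIs against 0. At day 7 Mt1 was also past 2-fold (0.449). The total of 6 genes past 2-fold on each day was the same without the shallower cells of shared barcodes.

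The wider pathway was read from a list of 75 further genes, 9 of haem making, 11 of haem breakdown, uptake and export, 22 of iron, 21 of zinc and copper and 12 of redox control. In fibroblast-like cells 4 of 61 were higher and 2 lower at day 3, 3 and 2 of 62 at day 7 and 1 and 2 of 61 at day 14, against 3.46% and 3.92%, 3.74% and 3.25%, and 2.39% and 1.56% of all genes. Lcn2, which binds the siderophores by which bacteria take up iron, went from 1.80 CPM at day 0 (4 UMIs) to 825 CPM at day 3, 458-fold higher (179 to 1681), and was 23.1-fold higher at day 7. Hp, haptoglobin, the plasma protein that binds free haemoglobin, was 67.1-fold higher at day 3 (33.9 to 156), 91.6-fold at day 7 and 9.28-fold at day 14. Slc11a2, an iron importer of the plasma membrane and endosome, was 4.20-fold higher at day 3 and 3.53-fold at day 7. Cp, the ferroxidase ceruloplasmin, was lower on all 3 days, with ratios of 0.477, 0.260 and 0.367, as was Hfe, the haemochromatosis protein, with 0.212, 0.209 and 0.378.

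In smooth muscle-like cells the list gave 13 higher and 5 lower of 54 at day 3, 10 and 3 of 53 at day 7 and 6 and 3 of 41 at day 14. Of all genes, 15.5% were higher and 8.0% lower at day 3, 16.6% and 6.3% at day 7 and 9.36% and 5.21% at day 14, so nothing particular to the list is read from these counts. At day 3, Slc39a13, a zinc transporter, was 4.35-fold higher (1.19 to 36.2) and Cp 4.997-fold (0.882 to 199), and Slc31a1, a copper importer, had 77 UMIs against 0. For Slc31a1, 3 UMIs at day 0 would have been 27.7 CPM, above its level of day 3, so its place rests on the 10 CPM added. Mtf1, the factor that binds MREs, stood at 0.265 (0.103 to 0.864), Slc30a6 at 0.285 (0.101 to 1.11) and Slc11a2 at 0.309 (0.122 to 1.00), from 4 or 5 UMIs at day 0. At day 7, Lcn2 stood at 1055 CPM against 1 UMI, a ratio of 114 (20.5 to 4511), Cp at 226 CPM against 1 UMI, and Hp had 411 UMIs against 0. Blvra, the other biliverdin reductase, stood at 0.254 (0.101 to 0.763), Slc30a6 at 0.332 and Slc11a2 at 0.385. At day 14, Lcn2 had a ratio of 8.27 (1.45 to 330), Slc31a2 had 21 UMIs and Hp 20 UMIs against 0, and Cpox, of haem making, stood at 0.194 (0.0888 to 0.457), Slc11a2 at 0.354 and Blvra at 0.408. For Slc31a2 and Hp, 3 UMIs at day 0 would have been 27.7 CPM, above their levels of day 14. Their places at day 14 thus rest on the 10 CPM added.

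In macrophage-like cells 1 of 62 was higher and 1 lower at day 7 against day 3, and 3 of 58 were higher and 3 lower at day 14, against 1.33% and 0.863%, and 2.56% and 2.92% of all genes. Slc7a11, the cystine importer, was 2.77-fold higher at day 7 (2.33 to 3.31). Lrp1, a receptor for haem bound to haemopexin, stood at 0.451 at day 7 and 0.397 at day 14. At day 14, Nfe2l2, the factor known to switch on Hmox1 and the ferritins, was 2.68-fold higher (2.41 to 2.98), Mafk, its partner, 2.93-fold (2.07 to 4.14) and Trf, transferrin, 2.08-fold (1.84 to 2.35). Hp stood at 0.108 and Fbxl5, an iron sensor, at 0.3395. Hmox1 was thus lower at day 14 in the same sums in which Nfe2l2 and Fth1 were higher. Within the Ms4a7/C1qa cluster, however, Hmox1 was higher at day 14 (150 CPM, 129 to 175) than at day 3 (91.1 CPM, 68.8 to 118). Against fibroblast-like cells, 9 of 63 were higher and 11 lower at day 3, 12 and 11 of 64 at day 7 and 11 and 9 of 61 at day 14, where all genes gave 12.7% and 13.8%, 11.3% and 15.0%, and 10.7% and 16.4%. Trf was 19.5-fold, 15.7-fold and 12.1-fold higher on these days, and Hfe was 4.78-fold and Fbxl5 3.74-fold higher at day 3. Slc7a11 was 104-fold (40.6 to 384) and Nfe2l2 4.88-fold higher at day 7, and Nfe2l2 was 4.72-fold and Bach1, the haem-sensing repressor of Hmox1, 3.43-fold higher at day 14. Cp stood at 0.0551, 0.0378 and 0.0684. Steap4, an iron and copper reductase, stood at 0.00980 and 0.0267 at days 3 and 7 and had 0 UMIs against 644 at day 14, with Lcn2 at 0.00242 at day 3, Hp at 0.214 at day 7 and Steap3, the endosomal iron reductase, at 0.125 at day 14. In the fibroblast-like sums, cells of over 30000 UMIs held 86.0% of the UMIs at day 3 and 78.2% at day 7. The part of these deep cells in the pathway ratios was not tested.

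Endothelial-like cells had 5 list genes higher and 1 lower of 38 at day 7, against 11.7% and 5.71% of all genes, led by Slc25a37, the mitochondrial iron importer (25 UMIs against 1), Fbxl5 (43 against 3) and Nfe2l2 (2.92-fold), with Slc30a4 at 0.439. At day 14 they had 1 higher, Abcg2 (6.09-fold), and 4 lower of 9, against 11.1% and 29.6% of all genes, with Ireb2 and Slc30a4 each at 1 UMI against 22 and Pcbp1 at 0.264. The other classes held at most 3 such genes, beside the shares of all genes given above for each. Dendritic-like cells had none of 57 at day 7 and, at day 14, Nfe2l2 higher (2.30-fold) and Slc39a10 (0.220) and Lrp1 (0.345) lower of 54. Neutrophil-like cells had 1 of 37 past 2-fold, Steap4 at 0.201. In T cell-like cells the only such gene was Gclm, of glutathione synthesis, 2.95-fold higher at day 7 of 44 and 3.27-fold at day 14 of 26, from 4 UMIs at day 3. The day 7 call, at a log2 ratio of 1.00, was lost without the shallower cells of shared barcodes and with each library clustered on its own. NK cell-like cells had Mafk, 2.59-fold higher, of 33 at day 7 and none of 7 at day 14.

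The genes whose pattern was most like that of 4 of the 10 were found by Pearson correlation of log2(CPM + 10) over 26 class-by-day sums and 7785 genes. These sums share libraries and depth, so the values are descriptions. Hmox1 was most like Ctsb (r = 0.88), a lysosomal protease, Cstb (0.86), Pla2g15 (0.85) and Ftl1-ps1 (0.85), and among the 10 genes like Slc11a1 (0.89) and Ftl1 (0.86). Slc40a1 was most like Mrgpra2b, AC110211.1, Ptgs2os2 and Gm39321, at 0.95 each. Tfrc was most like Fbxw7 (0.85), Zfp296 (0.83) and Fnbp4 (0.82). Mt1 was most like Lrp1 (0.92), Igsf8 (0.91), Axl (0.91) and Cbr3 (0.88), with Mt2 at 0.87.

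Ordered by class with the UMIs of all days pooled, Hmox1 was highest in monocyte/macrophage-like cells at 298 CPM and Blvrb there at 150 CPM. B cell-like cells held 146 CPM of Blvrb (92.4 to 219, from 23 UMIs), which does not differ beyond counting error. Fth1 (21326 CPM), Ftl1 (9050 CPM) and Slc40a1 (118 CPM) were highest in neutrophil-like cells. Slc11a1 stood at 154 CPM in neutrophil-like and 143 CPM in macrophage-like cells, which do not differ beyond counting error on the days they share. Slc39a14 (86.6 CPM), Mt1 (1833 CPM) and Mt2 (658 CPM) were highest in fibroblast-like cells. By day these orders turned in places. Slc39a14 was higher in smooth muscle-like than in fibroblast-like cells at day 14 (59.3 against 28.6 CPM), and at day 0 (37.0 against 13.1 CPM, the former from 4 UMIs) their intervals overlapped. Mt1 and Mt2 were higher in smooth muscle-like cells at day 7 (2276 against 916 CPM and 1277 against 338 CPM). With cells of over 30000 UMIs left out of both classes this order turned for Mt1 (651 against 1012 CPM) and not for Mt2 (311 against 275 CPM). At day 14 Mt2 stood at 182 CPM in smooth muscle-like and 164 CPM in fibroblast-like cells. Without cells of over 30000 UMIs it was 220 CPM (189 to 254) against 168 CPM (159 to 178). Tfrc was highest in B cell-like cells at 57.0 CPM, from 9 UMIs, among classes of over 20 cells. The pooled orders are those of summed UMIs, and when each cell's CPM was averaged Blvrb was highest in fibroblast-like cells (139 CPM) and Slc39a14 in smooth muscle-like cells (74.6 CPM).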

How the data were processed

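Carotid arteries were profiled by droplet scRNA-seq (10x 3′ v2) as 1 pooled library per day. The files hold UMI counts per gene and barcode, deposited by the authors as filtered matrices with no normalization. The file headers name Cell Ranger 3.0.2, while the methods name another version, and the submitters' notes name a human build for mouse data, so no coordinate was taken from the files. No deposited cell annotation was used. The study's own classes may differ from the names rebuilt here.

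Cells with at least 200 genes and at most 20% mitochondrial UMIs were kept, which left out 453 of 6161 barcodes. Scrublet scores were ranked within each library and the top 0.8% per 1000 barcodes were left out (106 cells, 1.72%), since its own threshold called 11. Counts were log-normalized with scanpy 1.11.5 (anndata 0.12.19, scikit-learn 1.9.0, scipy 1.17.1, numpy 2.4.6, pandas 2.3.3). Leiden clusters (leidenalg 0.10.2, igraph 0.11.9) were made from 2000 variable genes, 30 principal components and 15 neighbours at a resolution of 1. The 10 genes, the pathway list, and the stress and red-cell genes were left out of the variable genes. A cluster was named from at least 3 detected markers of a class at 3-fold over the other cells and written as "-like". Cells of cycling clusters took the class of at least 60% of their neighbours outside those clusters and otherwise stayed unnamed. The steps were tested on simulated data.

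UMIs were summed per class and day and scaled to CPM. Intervals are at 95%, exact Poisson for levels, exact binomial for shares and exact conditional for ratios. Cells were thinned to 1000 UMIs for shares, and shallower cells were left out. A contrast needed at least 20 cells on both sides and 20 UMIs over the pair of sums. Where the shallower cells of shared barcodes were left out, at least 10 cells were needed. Where no UMI was seen, the level of 3 UMIs is the limit. All 10 genes are named. Of the pathway list, up to 3 genes past 2-fold in each direction per contrast are named, by size of the log2 ratio, and for Hmox1, Slc40a1, Mt1 and Tfrc the 4 genes of highest likeness outside the 10, of which 1 is not reported here. The 10 genes, the lists and the markers were chosen with earlier results of these data known. Alternatives were the scaling, clustering, doublet, mitochondrial, added CPM, UMI minimum and deep-cell choices, and, chosen after seeing the data, leaving out the shallower cell of each shared barcode.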

Additional observations from a re-analysis of the deposited data

How the results depend on the processing

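Of 198 recomputed counts of the 10 genes past 2-fold, 163 stayed within 1.5 times the count given above and 35 did not, and of 81 pathway counts 66 and 15. Counts in this section stand without the share of all genes under the same setting, so nothing particular to the genes is read from them. Of 434 recomputed log2 ratios for genes past 2-fold, 407 moved by less than the counting interval, 25 moved and 2 turned, and the number of genes with the highest class given above stayed within 1.5 times in 7 of 7 settings. That number can hide moves of single genes, such as those of Blvrb and Slc39a14 under averaged CPM. When each cell's CPM was averaged, the counts of the 10 genes were 1 for fibroblast-like cells of day 3, 1 for smooth muscle-like cells of day 7 and 1 of day 14, 2 and 1 for endothelial-like cells of days 7 and 14, and 1 and 1 for dendritic-like cells of days 7 and 14. The pathway counts were then 1 for fibroblast-like cells of day 14, 28 and 17 for smooth muscle-like cells of days 7 and 14, 20 for endothelial-like, 1 for macrophage-like, 3 for neutrophil-like and 2 for NK cell-like cells of day 7, and 3 for T cell-like and 1 for NK cell-like cells of day 14. Under the same setting the log2 ratio of Ftl1 in endothelial-like cells of day 14 was -0.58, and -0.93 with the shallower cells of shared barcodes also left out. That combined setting also gave 5 of the genes in smooth muscle-like cells of day 3 and 1 at day 14, and pathway counts of 21 and 18 in smooth muscle-like cells of days 7 and 14, 1 in macrophage-like cells of day 7 and 3 in T cell-like cells of day 14. Leaving those cells out with summed UMIs moved 1 count by over 1.5 times, the pathway genes of T cell-like cells at day 7, to 0.

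Without cells of over 30000 UMIs the counts of the 10 genes were 2 for fibroblast-like and 1 for smooth muscle-like cells of day 3, 1 and 1 for endothelial-like cells of days 7 and 14 and 1 for macrophage-like cells of day 7. With 1 CPM added in place of 10 they were 5 for smooth muscle-like cells of day 3, 1 for endothelial-like, 2 for macrophage-like, 1 for dendritic-like and 3 for T cell-like cells of day 7, and 1 for dendritic-like cells of day 14. With no minimum of UMIs they were 7 for endothelial-like cells of day 14, 1 for neutrophil-like and 1 for NK cell-like cells of day 7, and 2 for T cell-like and 3 for NK cell-like cells of day 14, since more genes enter. With each library clustered on its own, dendritic-like cells had 1 at days 7 and 14, NK cell-like cells 1 at day 14, and the pathway count of T cell-like cells of day 7 was 0. Dendritic-like cells had 1 at each of days 7 and 14 at a resolution of 0.5 and again at a mitochondrial limit of 10%, where T cell-like cells of day 7 also had 1. Without doublet removal smooth muscle-like cells of day 7 had 5, and centring on the median of all genes gave 1 for macrophage-like cells of day 7. Apart from the UMI minimum, the cause was not tested. No paired analysis was possible because each day is 1 library.

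Depth limits the values in small sums, where a single UMI is several CPM or more. These include smooth muscle-like and macrophage-like cells of day 0, B cell-like cells, and endothelial-like cells of days other than day 7. One library per day leaves the day and the library impossible to tell apart.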
